A study of Mus musculus with 2 samples.

Results

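Dmp1 and 9 other genes of bone and tooth matrix were described in 2 rhabdoid tumors (RT) of the mouse. These 10 genes, Dmp1, Dspp, Ibsp, Mepe, Spp1, Phex, Bglap, Sp7, Runx2 and Alpl, were taken by symbol from a table of 55416 genes, and 10 of 10 were present in it. The tumors had formed in Dppa3-cre::Smarcb1 Fl/+ mice on a C57BL/6 background, which carry Cre recombinase at the Dppa3 locus and 1 floxed allele of Smarcb1. Cre therefore acts where Dppa3 is switched on, as in early germ cells, and Smarcb1 is a core gene of the SWI/SNF complex, which remodels chromatin. By their labels, 1 tumor was intracranial, inside the skull, and 1 was extracranial. The paper describes an intracranial tumor of this model beside the trigeminal nerve and an extracranial tumor at the maxilla. Its clustering placed the 2 sequenced tumors with the MYC subgroup. The age of the mice was not given in the sources used here. Each location had 1 library of bulk RNA, so no difference below has a replicate check, and each describes these 2 libraries and not the 2 locations.

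Mineralized tissue is laid down by osteoblasts, osteocytes and odontoblasts, which secrete collagen and then load it with calcium phosphate. Dmp1, Dspp, Ibsp, Mepe and Spp1 encode the SIBLING proteins, a family of secreted, acidic phosphoproteins that bind mineral or cells, and their genes lie next to each other on mouse chromosome 5. Runx2 and Sp7 are the transcription factors that commit cells to the osteoblast lineage, Alpl and Phex are enzymes at the cell surface that permit mineralization, and Bglap encodes osteocalcin, a late osteoblast product. Several of these genes are also used outside bone, Spp1 above all, which is abundant in activated macrophages.

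The intracranial-labelled library held 34545846 counts and the extracranial-labelled library 26915696. Smarcb1, the targeted gene, had 365 and 530 counts, respectively, or 10.5 and 19.8 CPM, and gene totals do not show whether the floxed exons were read. Postn, which marks extracranial tumor cells in the study's single-cell data, had 49555 and 20657 counts. It was thus higher in the intracranial-labelled library (log2 ratio -0.89, -0.91 to -0.86), the reverse of what its role as a marker would give. Bmp4, the study's marker of intracranial MYC tumor cells, was not examined here, and Postn alone in bulk tissue does not settle the location. Both libraries are therefore named by their labels. Keratinocyte markers also set the intracranial-labelled library apart, with a summed level of 24653 CPM beside 3.10 CPM. In that library Krt13 held 10554 CPM and Krt4 5747 CPM of this sum, while Krt1 and Krt10 held 13.2 and 12.3 CPM. Levels are given as CPM, counts scaled by library size, with exact Clopper-Pearson 95% intervals of the share, and ratios as log2 of extracranial over intracranial with a conditional exact 95% interval. These intervals cover counting error only, since each location had 1 library and the spread between tumors cannot be estimated. PCR copies of a molecule cannot be recognized without molecular identifiers, so the intervals may be too narrow even for counting error. Counts of 3 or fewer, which correspond to 0.0863 and 0.112 CPM, were treated as background. A gene was called where its whole interval lay beyond 4-fold. Of 21977 genes with at least 10 counts over both libraries, 1.78% were called higher in the extracranial-labelled library and 5.41% higher in the intracranial-labelled library, and the median log2 ratio was -0.04. The genes described here were chosen by name, but with the Dmp1 counts and ratios of both libraries known, so their values are a description without a test and nothing is read from how many were called.

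Of the 10 genes, 8 had enough counts for a ratio to be called, and Mepe and Dspp did not. Dmp1 was called higher in the extracranial-labelled library, 1 of 8, beside 1.78% of all genes. Ibsp and Bglap were called higher in the intracranial-labelled library, 2 of 8, beside 5.41% of all genes. Spp1, Alpl, Sp7 and Runx2 were higher in the extracranial-labelled library by more than counting error but were not called, and Phex was within counting error. For the 9 genes with a ratio the median was 0.37 on the log2 scale, and 0.19 without Dmp1.

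**Figure D1:**
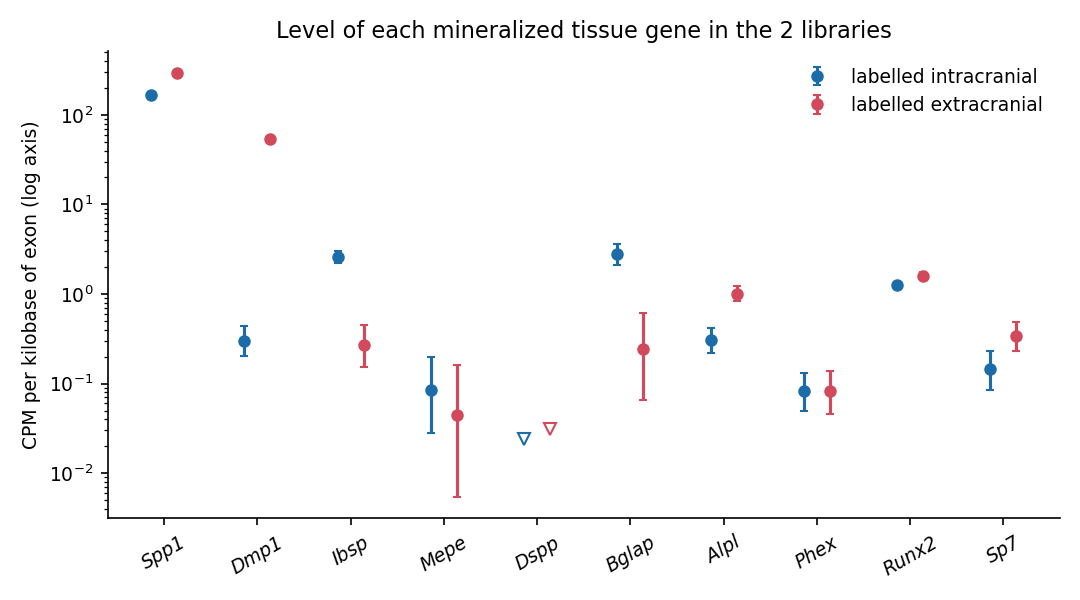
Level of the 10 mineralized tissue genes in each library, as CPM per kilobase of exon on a log axis, with blue points for the intracranial-labelled library and red points for the extracranial-labelled library. Bars are 95% counting intervals and open triangles mark the upper limit where the count was 0. Spp1 is the highest gene in both libraries, and Dmp1 stands at 0.302 in the former and 53.9 in the latter.

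Dmp1 (ENSMUSG00000029307) encodes dentin matrix protein 1, a SIBLING protein made mainly by osteocytes and odontoblasts that promotes mineral formation and restrains the phosphate hormone FGF23. The intracranial-labelled library held 29 Dmp1 counts, or 0.835 CPM (0.559 to 1.20). The extracranial-labelled library held 3988, or 149 CPM (144.4 to 153.7). The intervals did not overlap, and by CPM per kilobase of exon the gene lay at percentiles 24.0 and 94.1 of the genes above 3 counts in either library. The log2 ratio was 7.48 (6.96 to 8.06), a level 179-fold (124.1 to 267) higher in the extracranial-labelled library. With counts of 3 or fewer set to 3, 2 of the genes tested had a higher ratio, Vxn (5 and 1081 counts) and Lingo2 (1 and 425), which are named after their values were seen, and 0 had a higher lower bound of the interval. Because Dmp1 was chosen with its ratio known, this rank is a description only. No exon of another gene overlapped the exons of Dmp1, and 0% of the 72-base windows of its transcripts, the length of the reads, occurred in transcripts of other genes.

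The sequences before the transcription start of Dmp1 and of the members called or most abundant are shown because these bone genes, often listed together, differed in the direction of their ratio. The 250 bases are from RefSeq, build GRCm38.p6, which is not the build of the counts. Capitals mark the core motif bound by RUNX factors such as Runx2, ACCACA or its reverse complement TGTGGT.
Dmp1, chr5:104202367-104202616, plus strand: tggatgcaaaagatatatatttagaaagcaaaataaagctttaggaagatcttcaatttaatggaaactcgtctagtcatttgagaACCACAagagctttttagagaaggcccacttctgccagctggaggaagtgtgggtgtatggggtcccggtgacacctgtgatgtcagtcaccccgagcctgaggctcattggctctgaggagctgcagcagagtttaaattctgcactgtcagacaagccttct
Spp1, chr5:104434861-104435110, plus strand: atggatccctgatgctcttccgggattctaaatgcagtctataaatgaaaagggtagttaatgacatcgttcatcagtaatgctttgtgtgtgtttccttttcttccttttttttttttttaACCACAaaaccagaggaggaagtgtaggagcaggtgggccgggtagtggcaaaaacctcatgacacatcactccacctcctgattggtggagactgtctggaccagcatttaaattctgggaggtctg
Ibsp, chr5:104299037-104299286, plus strand: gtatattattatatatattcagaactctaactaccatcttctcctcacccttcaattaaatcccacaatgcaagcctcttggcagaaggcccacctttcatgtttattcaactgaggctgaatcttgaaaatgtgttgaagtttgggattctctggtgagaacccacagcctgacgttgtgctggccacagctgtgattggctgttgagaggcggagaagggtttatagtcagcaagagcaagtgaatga
Bglap, chr3:88384467-88384716, minus strand: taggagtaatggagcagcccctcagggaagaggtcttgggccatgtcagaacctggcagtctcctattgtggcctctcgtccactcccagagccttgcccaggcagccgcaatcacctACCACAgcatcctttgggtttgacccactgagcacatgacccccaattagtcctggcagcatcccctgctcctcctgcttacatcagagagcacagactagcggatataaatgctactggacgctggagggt
The motif ended 159 bases before the start in Dmp1, 123 bases before it in Spp1 and 127 bases before it in Bglap, and it was not among the letters of the Ibsp window. For Dmp1 the downstream of 2 RefSeq starts is shown, and for Spp1 the upstream of 2. In both genes the shown window is the one that held the motif, and the window of the other start held 0 matches. Over all starts listed, 5 of 11 windows of 8 members held the motif, in Bglap, Dmp1, Mepe, Runx2 and Spp1, against 14.05% of 32851 windows of the same length. Dspp and Sp7 had no entry. The motif was present before genes higher in either library, and a match of letters is not a binding site.

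Of the SIBLING genes, only Dmp1 was called higher in the extracranial-labelled library. Spp1 (ENSMUSG00000029304) encodes osteopontin, which inhibits crystal growth and binds integrins and CD44. It had 9463 and 13060 counts, or 272.3 CPM (266.9 to 277.9) and 488 CPM (479.7 to 496.5), in these libraries. The log2 ratio was 0.84 (0.80 to 0.88), 1.79-fold, and by CPM per kilobase Spp1 lay at percentiles 97.4 and 98.4. A predicted gene, Gm42793, overlapped 18.8% of the exon bases of Spp1, which leaves a part of its reads uncertain.

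Ibsp (ENSMUSG00000029306), bone sialoprotein, is a protein of osteoblasts and hypertrophic cartilage that nucleates mineral. It had 186 and 15 counts, or 5.35 CPM (4.61 to 6.18) and 0.561 CPM (0.314 to 0.925). Its log2 ratio was -3.26 (-4.12 to -2.50), which is 9.55-fold (5.64 to 17.4) higher in the intracranial-labelled library. Thus Ibsp and Dmp1 were called in opposite directions, with no overlap between the levels of either gene.

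Mepe (ENSMUSG00000053863), a SIBLING protein of osteocytes that holds a mineral-binding peptide, had 5 and 2 counts. Its log2 ratio of -0.95 had an interval of -4.34 to 1.67, so no difference was detectable at this depth. Dspp (ENSMUSG00000053268), the precursor of the main dentin proteins and a mark of odontoblasts, had 0 counts in both libraries, which allows levels up to 0.106 and 0.138 CPM. Dmp1 was thus abundant in a library in which Mepe was at the floor and Dspp was at 0.

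**Figure D2:**
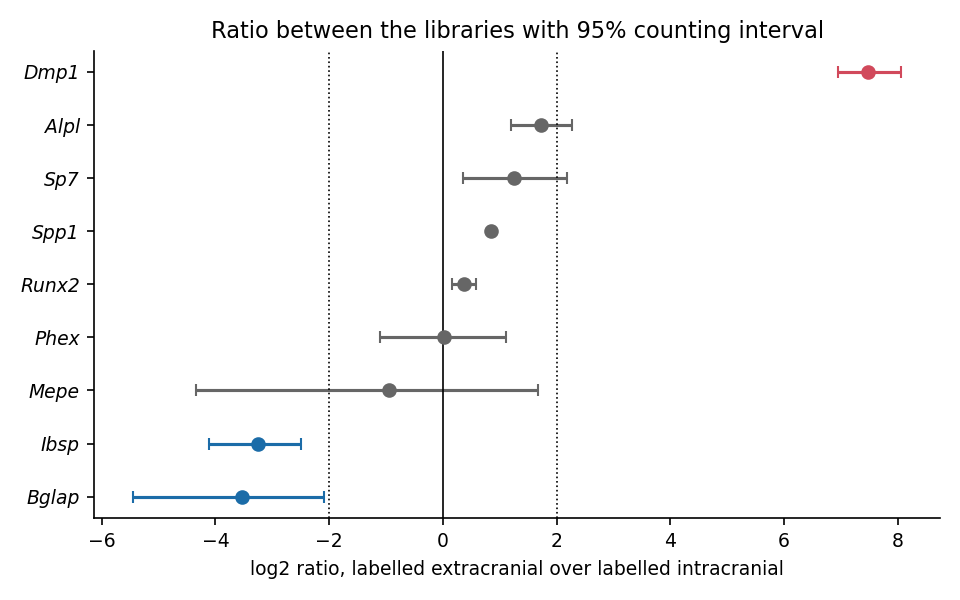
Log2 ratio of the extracranial-labelled library over the intracranial-labelled library for the 9 genes with a ratio, with 95% counting intervals. Dotted lines mark 4-fold in each direction, red marks the gene called higher in the former and blue those called higher in the latter. Dmp1 lies at 7.48, Ibsp at -3.26 and Bglap at -3.53, and the other 6 intervals reach inside the dotted lines.

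The genes beside the SIBLING block were compared as well. In RefSeq order the block runs Dspp, Dmp1, Ibsp, Mepe, Spp1, with no other named protein-coding gene of the table in between. Directly before Dspp lies Sparcl1, which encodes a secreted glycoprotein of the SPARC family. It had 1604 and 24781 counts, or 46.2 and 926.1 CPM. Its log2 ratio was 4.33 (4.25 to 4.40), and it was called higher in the extracranial-labelled library. Pkd2, directly after Spp1, had 3898 and 2788 counts and a log2 ratio of -0.11 (-0.18 to -0.04). Of the other neighbors, Hsd17b11, Nudt9, Zfp951, Abcg3 and Gbp8 had log2 ratios of 0.70, 0.89, 0.53, 0.29 and 1.15, none was called, and the predicted gene Gm17660 had 0 counts in both. Of the 7 neighbors tested, 1 was thus called, beside 1.78% of all genes. In chromosomal order, high ratios at Sparcl1 and Dmp1 were separated by Dspp, at 0 counts, and followed by the low ratio of Ibsp.

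**Figure D3:**
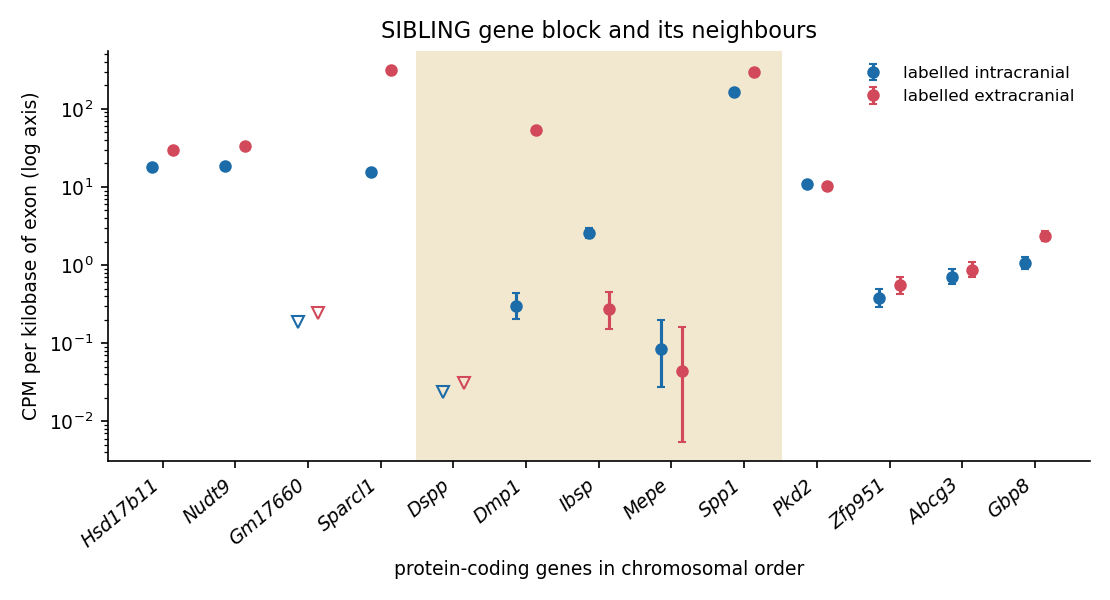
Level of the 5 SIBLING genes (shaded) and of 4 protein-coding genes on each side, in chromosomal order, as CPM per kilobase of exon on a log axis, with 95% counting intervals. Blue is the intracranial-labelled library, red the extracranial-labelled library, and open triangles are upper limits at 0 counts. The red points lie far above the blue ones at Sparcl1 and Dmp1, and below them at Ibsp.

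Bglap (ENSMUSG00000074483), osteocalcin, is secreted by mature osteoblasts and bound to bone mineral. It had 60 and 4 counts, or 1.73 CPM (1.32 to 2.22) and 0.149 CPM (0.0407 to 0.383), and its log2 ratio was -3.53 (-5.45 to -2.10). Bglap2, a second osteocalcin gene, had 107 and 1 counts (log2 ratio -6.36, -11.68 to -3.86), and the related Bglap3 had 425 and 9 (-5.18, -6.32 to -4.25). Each of the 3 was called higher in the intracranial-labelled library. The reads of Bglap and Bglap2 are hard to tell apart. Of their 72-base windows, 50.8% of those of Bglap and 75.8% of those of Bglap2 also occurred in the other copies. For Bglap3, which had the most counts of the 3, only 5.79% of the windows occurred in other genes. Summed, the 3 genes had 592 and 14 counts and a log2 ratio of -5.03 (-5.91 to -4.27), a choice made after seeing the data.

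Alpl (ENSMUSG00000028766), tissue-nonspecific alkaline phosphatase, cleaves pyrophosphate, an inhibitor of mineralization, and is active in osteoblasts and other cells. It had 43 and 109 counts, or 1.24 CPM (0.896 to 1.67) and 4.07 CPM (3.34 to 4.91). The log2 ratio was 1.72 (1.20 to 2.26), 3.29-fold higher in the extracranial-labelled library. Phex (ENSMUSG00000057457), a membrane endopeptidase of osteocytes whose loss causes phosphate wasting, had 18 and 14 counts, or 0.518 and 0.523 CPM. Its log2 ratio of 0.01 (-1.11 to 1.10) was within counting error, and both levels were low.

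Runx2 (ENSMUSG00000039153), the master transcription factor of osteoblasts, had 383 and 380 counts, or 11 CPM (9.95 to 12.2) and 14.2 CPM (12.8 to 15.7). The log2 ratio was 0.37 (0.16 to 0.57), 1.29-fold, so its levels in the libraries were much closer than those of Dmp1, Ibsp or Bglap. Runx2os1, an antisense gene, overlapped 5.87% of its exon bases, and whether reads were counted by strand is not given in the sources used here. Sp7 (ENSMUSG00000060284), also named osterix, acts after Runx2 and is largely restricted to bone-forming cells. It had 17 and 31 counts, or 0.489 CPM (0.285 to 0.783) and 1.16 CPM (0.787 to 1.64). The log2 ratio was 1.24 (0.35 to 2.19), higher in the extracranial-labelled library, the reverse of Bglap and Ibsp.

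Per kilobase of exon, the order of the genes differed between the libraries. In the intracranial-labelled library it was Spp1 (165.3 CPM per kilobase), Bglap (2.79), Ibsp (2.59), Runx2 (1.25), Alpl (0.307), Dmp1 (0.302), Sp7 (0.144), Mepe (0.0856), Phex (0.0823) and Dspp. Bglap and Ibsp did not differ beyond their intervals there, nor did Alpl and Dmp1, Dmp1 and Sp7, Sp7 and Mepe, or Mepe and Phex. In the extracranial-labelled library it was Spp1 (296.1), Dmp1 (53.9), Runx2 (1.61), Alpl (1.01), Sp7 (0.341), Ibsp (0.271), Bglap (0.242), Phex (0.0832), Mepe (0.0444) and Dspp. Here the neighbors from Sp7 to Dspp did not differ beyond their intervals. Dmp1 held rank 6 in the former library and rank 2 in the latter, above both osteogenic transcription factors.

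**Figure D4:**
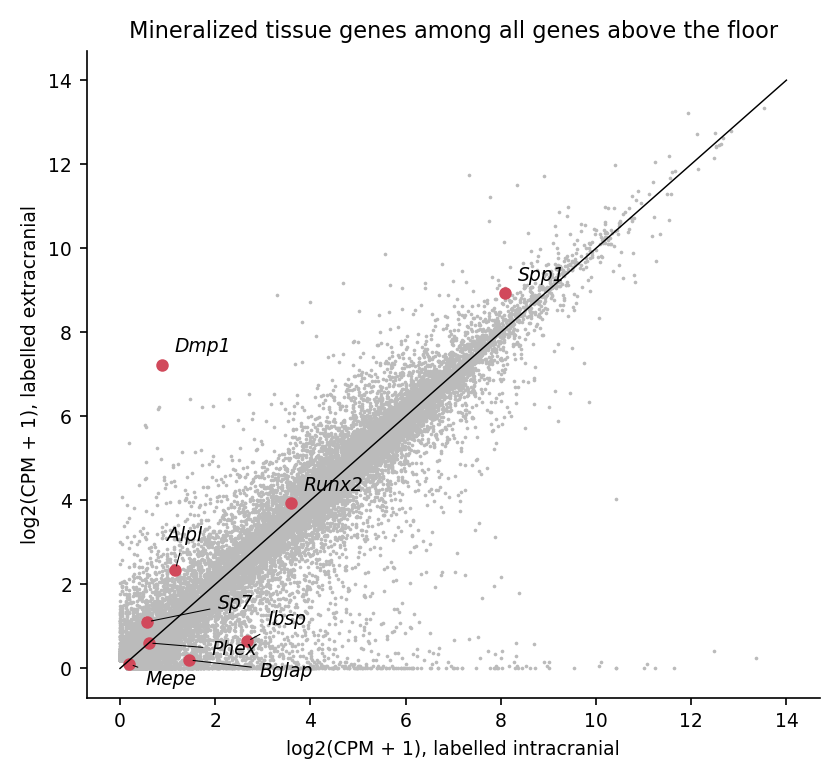
Each gray point is a gene above the floor in either library, plotted by log2(CPM + 1) in the intracranial-labelled library (horizontal) and extracranial (vertical), and the line marks equal levels. Of the 9 detected mineralized tissue genes (red), Dmp1 lies far above the line, Ibsp and Bglap lie below it, and Spp1 and Runx2 lie close to it.

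Other genes of mineralization were described by lists, each beside the median of -0.04 over all genes tested. Of 12 bone matrix proteins, 3 were higher and 8 lower in the extracranial-labelled library by more than counting error, against 29.2% and 32.2% of all genes, and the median was -0.40. Mgp, matrix Gla protein, which prevents calcification of soft tissue, was called higher there, with 5570 and 91704 counts (log2 ratio 4.42, 4.38 to 4.46). Col1a1 and Col1a2, the chains of type I collagen, had log2 ratios of -0.33 (-0.35 to -0.30) and 0.48 (0.46 to 0.49), and their levels of 1113 and 887 CPM and of 1733 and 2414 CPM were high in both libraries. Ifitm5, a membrane protein largely restricted to osteoblasts, had 61 and 53 counts, within counting error. Type I collagen transcripts were thus abundant in both libraries, while those of osteocalcin, Ibsp and Dmp1 differed between them.

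The 12 osteogenic cofactors had a median of -0.56. By more than counting error, 3 were higher and 8 lower in the extracranial-labelled library, against 29.2% and 32.2% of all genes. Mef2c, a transcription factor active in muscle, immune cells and osteocytes, was called higher there, with 762 and 2783 counts (log2 ratio 2.25, 2.13 to 2.36). Dlx5, a homeobox activator of osteoblast genes, had 32 and 4 counts (-2.62, -4.58 to -1.13), and Twist1, a factor that restrains Runx2, had 4809 and 2262 counts (-0.71, -0.78 to -0.64). Of the 8 mineralization enzymes and transporters, 6 were tested, and the median was -0.04. By more than counting error, 2 were higher and 3 lower in the extracranial-labelled library, beside the same shares of all genes. Enpp1 alone was called, higher in the extracranial-labelled library, beside 1.78% of all genes. Enpp1 makes pyrophosphate, and it had 1671 and 5608 counts, 4.36-fold higher in the extracranial-labelled library (2.12, 2.04 to 2.20). Ank, which exports pyrophosphate, had a log2 ratio of 0.27 (0.24 to 0.30), whereas Phospho1, an enzyme of matrix vesicles, had 4 and 0 counts.

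Among the 9 kinases and proteases that act on SIBLING proteins, the median was -0.02, 3 were higher and 4 were lower in the extracranial-labelled library. For this list and those that follow here, the counts are of genes beyond counting error, against 29.2% of all genes higher and 32.2% lower. Fam20c, the Golgi kinase that phosphorylates these proteins, had 584 and 749 counts (0.74, 0.58 to 0.89), and Bmp1, a protease that cleaves Dmp1 and Dspp, had 1972 and 1271 (-0.26, -0.36 to -0.15). Mmp3 was called higher in the intracranial-labelled library, with 1207 and 30 counts (-4.95, -5.53 to -4.43). Of the 8 genes of the phosphate and vitamin D axis, 3 were lower and 0 higher in the extracranial-labelled library, with a median of -0.90. Vdr, the vitamin D receptor, was called higher in the intracranial-labelled library, with 761 and 29 counts (-4.34, -4.93 to -3.80). Fgf23, the hormone that Dmp1 and Phex restrain, had 0 counts in both libraries. For the 9 receptors of SIBLING proteins the median was 0.04, with 4 higher and 3 lower. Itgb5, an integrin chain, was called higher in the extracranial-labelled library, with 4398 and 15867 counts (2.23, 2.18 to 2.28), while Cd44 had 16405 and 6557 counts (-0.95, -0.99 to -0.90).

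Enamel and tooth proteins were close to absent. Ambn and Odam had 0 counts in both libraries, Amelx and Enam had 1 and 0, and Amtn had 0 and 1, so that 5 of 7 genes were given no ratio. Klk4, an enamel protease, had 2 and 8 counts (2.38, 0.05 to 5.65). Odaph had 41 and 0 counts, which is 10.5-fold higher in the intracranial-labelled library with the 0 set to the floor of 3 counts, with a counting interval that began at 8.18-fold. With Dspp at 0, no defining gene of odontoblasts other than Dmp1, nor any of ameloblasts apart from Klk4, exceeded the floor in the extracranial-labelled library. Over the 65 genes of these 7 lists, 54 were tested, of which 4 were called higher in the extracranial-labelled library and 5 in the other, beside 1.78% and 5.41% of all genes.

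**Figure D5:**
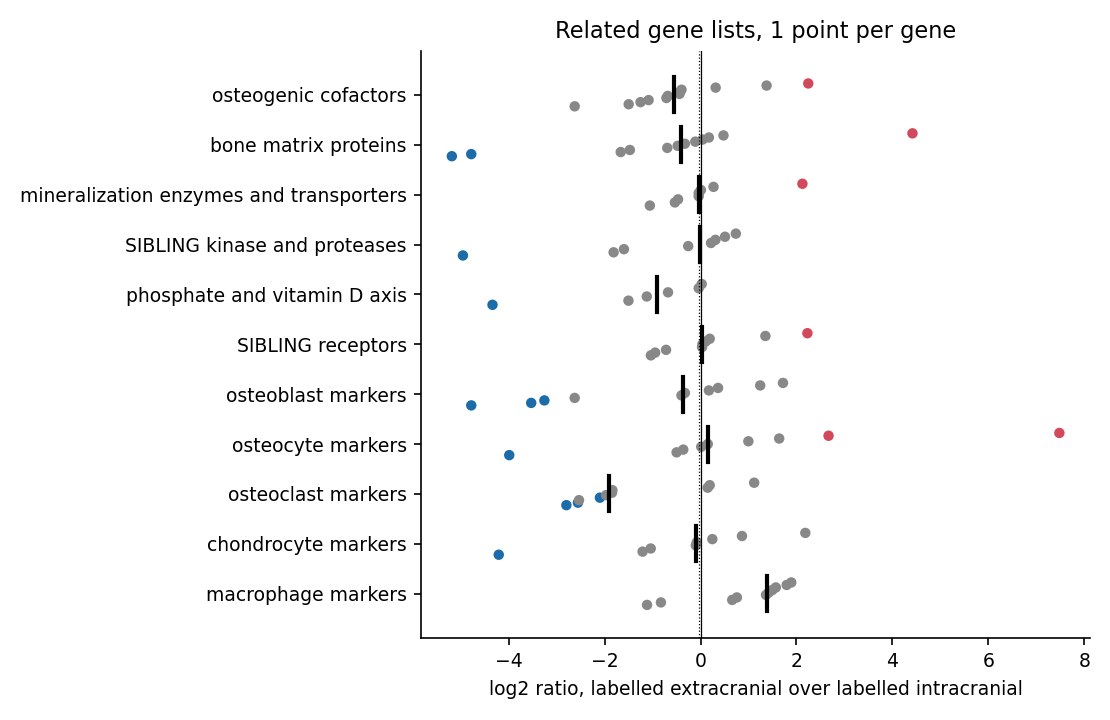
Log2 ratio of the extracranial-labelled library over the intracranial-labelled library for each gene of the related lists and of 5 cell type marker lists, with counts of 3 or fewer set to 3. Red points were called higher in the former, blue points higher in the latter and gray points were not called, and black bars are list medians. The osteoclast bar lies at -1.91 and the macrophage bar at 1.39, and the rightmost point, at 7.48, is Dmp1.

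Markers of the cells that could carry these genes were set beside them. In bulk tissue, fewer cells of a type and less RNA per cell cannot be told apart. Osteoblast markers summed to 1147 and 916 CPM, mostly from Col1a1, with Bglap, Ibsp, Sp7, Alpl and Runx2 among the 10. Their median log2 ratio was -0.36. By more than counting error, 6 of 10 were lower and 3 higher in the extracranial-labelled library, against 32.2% and 29.2% of all genes. Of the osteocyte markers other than Dmp1, Fgf23 had 0 counts in both, Mepe had 5 and 2, and Sost, an osteocyte inhibitor of Wnt signaling, had 5 and 12 counts (1.64, 0.03 to 3.50). Tnfrsf11b, osteoprotegerin, was called higher in the extracranial-labelled library, with 126 and 617 counts (2.67, 2.39 to 2.96), and Ptprz1 was called lower, with 206 and 10 counts (-3.99, -5.07 to -3.08). Pdpn was lower there but not called, with 17169 and 9355 counts (-0.499, -0.54 to -0.46). Tnfsf11 was higher but not called, with 54 and 83 counts (0.997, 0.49 to 1.52). The osteocyte list, Dmp1 included, summed to 508.8 and 528.4 CPM, of which Pdpn held 494.1 and 349.6 CPM. Its median was 0.15. Of its 8 genes tested, 4 were higher and 2 lower in the extracranial-labelled library by more than counting error, against 29.2% and 32.2% of all genes. Cartilage genes were low, with Col2a1 at 23 and 21 counts and Acan at 8 and 2, and the summed level of 200.1 and 30.1 CPM came mainly from Comp (6474 and 270 counts).

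Of the osteoclast markers, most were higher in the library with more Ibsp and Bglap. They summed to 1177 CPM in the intracranial-labelled library and 513 CPM in the extracranial-labelled library, with 7 of 10 higher in the former and 3 of 10 in the latter by more than counting error, against 32.2% and 29.2% of all genes, and a median log2 ratio of -1.91. Ctsk, Acp5 and Ocstamp were called, 3 of 10, beside 5.41% of all genes. Ctsk, the collagen-degrading protease of osteoclasts, had 19658 and 2575 counts (-2.56, -2.62 to -2.50). Acp5, tartrate-resistant acid phosphatase, had 10014 and 1802 (-2.10, -2.17 to -2.03), and Ocstamp, a gene of osteoclast fusion, had 379 and 42 (-2.80, -3.29 to -2.33). Calcr, the calcitonin receptor of mature osteoclasts, had 14 and 0 counts. The reverse held for Tnfrsf11a, the receptor RANK (1.12, 0.99 to 1.25), Itgb3 (0.19, 0.14 to 0.24) and the transcription factor Nfatc1 (0.15, 0.03 to 0.27). Keratinocyte markers were also higher in the intracranial-labelled library by more than counting error, 10 of 10 against 32.2% of all genes. In the other library 6 of them were at 0, and skeletal muscle markers summed to 52.1 and 10.7 CPM. The part of these cells in the ratios of Ibsp and Bglap was not tested.

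Most macrophage markers were higher in the library with more Spp1. They summed to 5387 CPM in the intracranial-labelled library and 11252 CPM in the extracranial-labelled library, 2.09-fold, beside the 1.79-fold of Spp1, and none was at 0. The median log2 ratio was 1.39, with 8 of 10 higher in the extracranial-labelled library by more than counting error, against 29.2% of all genes, and 0 called. Csf1r, the receptor that macrophages depend on, had 13206 and 35302 counts (1.80, 1.77 to 1.82), whereas Gpnmb and Lgals3 were lower, at -1.12 (-1.62 to -0.63) and -0.83 (-0.89 to -0.76). The part of macrophages in the ratio of Spp1, and of any of these cell types in that of Dmp1, was not tested.

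The 5 genes whose levels in the 2 libraries were nearest to those of Dmp1 were Rasgrf1, Gm10717, Adamtsl1, Gm10801 and Gm42047, at distances of 0.998 to 1.46 on the log2(CPM + 1) scale. Rasgrf1, a Ras exchange factor, had 27 and 1985 counts (6.58, 6.03 to 7.18), and Adamtsl1, a secreted matrix protein of the ADAMTS-like family, had 26 and 1906 (6.57, 6.02 to 7.19). Gm10717, Gm10801 and Gm42047 are predicted genes, with 61 and 2238, 80 and 1985, and 99 and 1987 counts. Of their 72-base windows, 36.3%, 3.70% and 57.1% also occurred in other genes, so their counts are uncertain. None of the 5 belonged to a bone or tooth list, and with 2 libraries nearness means only a similar pair of levels.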

How the data were processed

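Poly(A) RNA of 2 tumors was sequenced by the authors as single reads from directional libraries, aligned with STAR 2.7.9a to GRCm39 and counted per Ensembl gene with featureCounts. The deposited values are raw counts, 1 column per tumor. Settings for strand and for reads with several alignments are not given in the sources used here. TMM factors from edgeR 4.0.16 (R 4.3.3) set the library sizes. Each location had 1 library, so no test could be fitted and no p-value is given. Levels have Clopper-Pearson 95% intervals and ratios a conditional exact binomial 95% interval, computed with scipy 1.17.1. For list medians, counts of 3 or fewer were set to 3, with no ratio if both were that low. Where a single gene is named with 1 to 3 counts, its ratio is that of the counts as deposited. Symbols (52083 of 55416 genes), exon lengths and the 72-base windows came from GENCODE mouse release 21, which is older than the annotation of the counts. Gene coordinates are therefore not given, apart from those of the RefSeq sequences shown, which are of the older build. Named are the 10 genes, the genes of the related and cell type lists, the targeted gene, the 5 genes nearest to Dmp1 and 4 protein-coding genes on each side of the SIBLING block. Members and lists were chosen with earlier results of these data known. The procedures were tested on simulated counts that varied by counting error only, without differences between tumors or PCR copies. Alternatives were DESeq2 1.42.0 size factors, total counts, upper quartile scaling, other limits and filters, a prior count of 2 and, added after seeing the data, the summed osteocalcin genes. Postn was also named after seeing the data.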

Additional observations from a re-analysis of the deposited data

How the results depend on the processing

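No paired analysis was possible because only 1 library existed per location, and for the same reason no library could be left out. Over the 3 other scalings and a prior count of 2, the log2 ratio lay between 7.37 and 7.52 for Dmp1, between -3.27 and -3.11 for Ibsp and between -3.55 and -3.06 for Bglap, and each of the 9 genes with a ratio stayed inside its counting interval. The sign of Phex, within counting error, turned with total counts. Of 204 alternative values, 195 stayed inside the interval of the reported value or, for counts, within 1.5 times of it, and 0 called values changed sign. With an interval beyond 2-fold, 2 of the members were called higher in the extracranial-labelled library, Alpl beside Dmp1, and 3434 genes were called in all, with 1287 on the extracranial and 2147 on the intracranial side. Calling on the ratio alone, beyond 4-fold, gave 2542 genes, with 787 on the extracranial side. That rule also takes genes whose interval reaches inside 4-fold. Upper quartile scaling moved the median of the bone matrix proteins from -0.40 to -0.36, and turned that of the kinases and proteases to 0.02. With the prior count, the medians of the mineralization enzymes and of the enamel proteins went from -0.04 to -0.50 and from -0.80 to -1.34, where an interval without a lower bound cannot show a downward move. The medians of the osteoclast, keratinocyte and skeletal muscle markers lacked a lower bound as well. The levels of Dspp were 0 under every scaling and could not move, so the tally of unmoved values is in part fixed in advance. Scalings shifted the median of all genes by -0.02 to 0.04. Without dividing by exon length, 5 of the 10 genes took another rank in the intracranial-labelled library and 2 in the other, while Dmp1 kept ranks 6 and 2. Depth limits Mepe and Dspp, whose counts were too low to show a difference below several-fold. It also limits Phex, whose interval reached 2.15-fold in either direction.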
